A study of Mus musculus with 31 samples.

Results

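The roof plate forms the dorsal midline of the neural tube, and 9 of its genes and of the neighbouring dorsal domain were followed here: Lmx1a, Lmx1b, Msx1, Msx2, Gdf7, Bmp7, Ttr, Pax3 and Pax7. The genes were chosen by name and matched through Ensembl identifiers, and all 9 were found among the 34865 genes of a bulk table and the 55487 genes of a Smart-seq2 table. The bulk table holds 3 dorsal and 3 ventral diencephalon libraries from wild type mouse embryos at E10.5 (E, embryonic day). The Smart-seq2 table, from a full-length method for very small inputs, holds 13 libraries labelled Axin2-/- (null) and 12 labelled Axin2+/+, prepared from E11.5 medial cortex; the embryos carried Emx1-CreERT2, MADM-11 and Axin2LacZ/+. In MADM (mosaic analysis with double markers) Cre exchanges arms of chromosome 11, which carries Axin2, so that 1 dividing cell gives a mutant and a wild type daughter. The Cre is inducible and driven from Emx1, a gene of cortical progenitors, so the labelled cells descend from cells in which that promoter was active. None of the 9 genes lies on chromosome 11.

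In development the roof plate secretes BMP and Wnt proteins that pattern the dorsal neural tube. The LIM-homeodomain factors Lmx1a and Lmx1b specify roof plate cells, Msx1 and Msx2 are homeodomain factors induced by BMP signals, and Gdf7 and Bmp7 are BMP-family ligands that the roof plate makes. In the forebrain the roof plate gives rise to the cortical hem and to choroid plexus epithelium, whose most abundant secreted product is transthyretin, the protein of Ttr. Pax3 and Pax7 are paired-box factors of the dorsal neural tube next to the roof plate, and both are also used in neural crest.

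The 6 bulk libraries held 17604166 to 20838002 counts. Dorsal libraries 1 and 2 correlated at 0.9948 across genes and ventral libraries 1 and 2 at 0.9871, while ventral library 3 correlated at 0.9254 and 0.9141 with those libraries. All 7 telencephalic cortex markers listed were higher in dorsal, where they summed to 1687 to 1946 CPM (counts per 1000000 counts) against 51.1 to 56.1 CPM in ventral. Genes of other organs were found in ventral libraries: 14 small intestine genes summed to 2707 to 9700 CPM there and to 10.4 to 14.3 CPM in dorsal. Whether replicate libraries derive from different embryos is not stated in the labels, so the p-values may reflect technical spread alone.

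Promoter stretches are shown for the Lmx1 pair, which separated the regions, and for Msx1, whose regions overlapped. They are RefSeq sequences of build GRCm38.p6, written 5′ to 3′ on the gene's strand, and end at or next to the base before the RefSeq start. Bases that an exon of GENCODE M21 covers were left out; the Lmx1a stretch lies in an intron of a longer Lmx1a transcript, upstream of a shorter one. Capitals mark matches to an E-box (CANNTG, a palindrome) or a CCAAT box (CCAAT on either strand).
Lmx1a, chr1:167689308-167689556, plus strand: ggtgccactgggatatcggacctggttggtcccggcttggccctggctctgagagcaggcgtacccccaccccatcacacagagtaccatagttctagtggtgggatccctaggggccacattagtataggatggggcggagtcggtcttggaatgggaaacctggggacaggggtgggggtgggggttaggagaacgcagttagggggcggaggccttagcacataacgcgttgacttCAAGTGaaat
Lmx1b, chr2:33641099-33641192, minus strand: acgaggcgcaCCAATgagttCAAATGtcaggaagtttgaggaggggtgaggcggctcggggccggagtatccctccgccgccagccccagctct
Msx1, chr5:37824586-37824835, minus strand: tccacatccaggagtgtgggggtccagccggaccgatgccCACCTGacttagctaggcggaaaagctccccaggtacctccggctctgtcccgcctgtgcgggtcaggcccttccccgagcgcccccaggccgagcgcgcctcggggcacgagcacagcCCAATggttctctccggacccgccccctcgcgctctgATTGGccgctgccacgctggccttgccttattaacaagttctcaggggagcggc
The Lmx1a stretch holds 1 E-box, 11 to 6 bases before the start. Lmx1b holds an E-box at 74 to 69 and a CCAAT box at 84 to 80 bases before its RefSeq start, which lies upstream of the GENCODE gene, and a further CCAAT box at 236 to 232 bases is in the part left out. In Msx1 an E-box stands at 210 to 205 bases, a CCAAT box at 91 to 87 bases and a reversed one at 54 to 50 bases before the start. Of 32851 mouse promoters searched over the same 250 bases, 66.2% held an E-box and 33.8% a CCAAT box, so both are common letters. Also searched on both strands were CTTTGA, the core bound by Tcf/Lef factors (13.8% of promoters), GGCGCC, a BMP Smad motif (9.59%), TAATTA, a homeodomain core (4.84%) and TATAAA, the TATA box (12.4%). None of these 4 was found in the full 250-base windows of Lmx1a, Lmx1b, Msx1, Gdf7 or Pax7, while the Msx2 window held TAATTA at 187 to 182 bases before its start. RefSeq promoters were matched for 6 of the 9 genes. A match is a run of letters and not a shown binding site.

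Dorsal and ventral diencephalon were compared gene by gene. Of the 9, 2 factors passed the test, Lmx1a at 11.7-fold and Pax3 at 8.23-fold higher in dorsal, and none of the 9 was higher in ventral. Pax7, Lmx1b, Ttr and Bmp7 also had no overlap, with dorsal above, but Bmp7 and Ttr did not pass, and Lmx1b and Pax7 were too low to be tested in the same fit. Msx1, Msx2 and Gdf7 overlapped between the regions. Msx1 did not pass, and Msx2 and Gdf7 were also too low to be tested in that fit. In bulk tissue, fewer cells of a type and less RNA per cell cannot be told apart.

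A gene was tested where its mean over the 6 libraries reached 1 CPM, which 14701 genes and 5 of the 9 did: Lmx1a, Msx1, Bmp7, Ttr and Pax3. The share called was 7.14% in the dorsal and 9.54% in the ventral direction, at an adjusted p under 0.05 (edgeR quasi-likelihood test, Benjamini-Hochberg adjustment). Regions were fully separated, with dorsal above, for 19.0% of tested genes and for 6.78% of the 11921 genes that had counts but stayed under the minimum; with ventral above, the shares were 20.0% and 4.84%. The median log2 fold change was 2.63 over the 5 tested genes and 0.00622 over all tested genes. Among the 9, separation with dorsal above was seen for 6, of which 4 were tested and 2 lay under the minimum, and with ventral above for none.

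**Figure D1:**
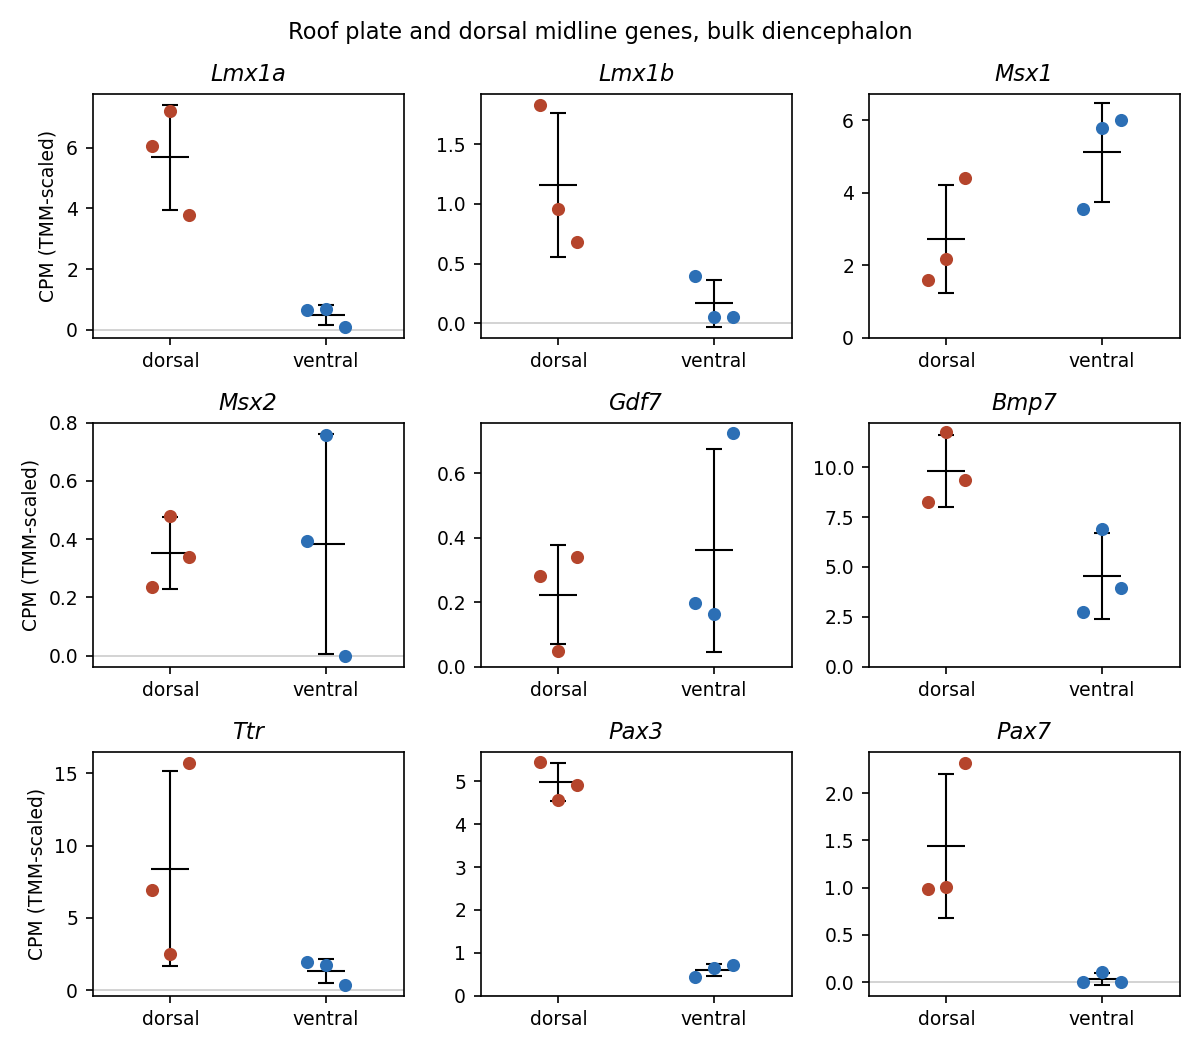
CPM after TMM scaling in each bulk library, 1 panel per gene with its own axis, dorsal in red and ventral in blue; the bar is the mean and the whiskers are ± SD over 3 libraries. Lmx1a, Lmx1b, Bmp7, Ttr, Pax3 and Pax7 have every dorsal point above every ventral point, while Msx1, Msx2 and Gdf7 overlap.

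Lmx1a (ENSMUSG00000026686, chromosome 1, 167689237 to 167848741, plus strand), which can turn progenitors to a roof plate fate, was at 6.06, 7.204 and 3.795 CPM in dorsal libraries 1 to 3. It was at 0.641, 0.703 and 0.111 CPM in the ventral ones. The lowest dorsal value thus lay well above the highest ventral one. The means were 5.69 ± 1.74 and 0.485 ± 0.325 CPM (SD, n = 3 each), a log2 fold change of 3.53 (SE 0.75, edgeR adjusted p = 0.0153). The call rested on few counts, 67 to 150 per dorsal and 2 to 13 per ventral library. Leaving out dorsal library 1 ended it (log2 fold change 3.47, edgeR adjusted p = 0.0641), as did leaving out dorsal library 2 (3.32, adjusted p = 0.0704) or ventral library 1 (3.78, adjusted p = 0.0535), and over all alternatives the adjusted p ranged from 3.78e-05 to 0.0704.

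Its paralog Lmx1b (ENSMUSG00000038765, chromosome 2, 33560965 to 33640511, minus strand) acts with Lmx1a in the roof plate and in midbrain dopamine neurons. It was at 1.83, 0.961 and 0.680 CPM in dorsal libraries, against 0.395, 0.0541 and 0.0556 CPM in the ventral ones. The regions did not overlap, with 12 to 39 counts per dorsal and 1 to 8 per ventral library. An exact two-sided permutation test of the 6 values gave p = 0.1, the smallest that 3 against 3 allow. A fit without the minimum gave a log2 fold change of 2.72 (SE 1.13, edgeR adjusted p = 0.157), so Lmx1b did not pass there either. The gene body overlaps Gm38011 on the opposite strand, but whether an Lmx1b exon overlaps it was not checked. If one does, reads of the shared bases could not be told apart without a stated strand setting.

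Lmx1a and Lmx1b are also expressed by floor plate and posterior hypothalamic lineages, so 13 genes of those lineages were listed beside them. Of 8 tested, 4 were higher in dorsal (Barhl1, Barhl2, Nr4a2 and Slc17a6) and 2 in ventral, with a median log2 fold change of 1.17. Among all tested genes 7.14% and 9.54% were called in these directions. The 4 fell to 1 without dorsal library 1 or ventral library 2, to 2 without dorsal library 2 or ventral library 1, and to 2 with a replicate block. Barhl1, a homeobox gene of that lineage, averaged 7.90 ± 0.915 against 0.340 ± 0.322 CPM, a call lost without dorsal library 1 or ventral library 2 (edgeR adjusted p up to 0.0586). Nr4a2, a nuclear receptor of dopamine neurons, was at 32.7 ± 9.88 against 6.19 ± 1.20 CPM. In the other direction Shh, the ventral midline morphogen, averaged 0.257 ± 0.141 CPM in dorsal against 7.53 ± 0.806 CPM. Th, which makes dopamine's precursor, was at 5.59 ± 1.09 against 62.6 ± 7.85 CPM. Dorsal Lmx1a thus stood beside lower Shh and Th and beside higher Barhl1, Barhl2, Nr4a2 and Slc17a6. The part of other Lmx1a-expressing lineages in the Lmx1a values was not tested.

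Msx1 (ENSMUSG00000048450, chromosome 5, 37820485 to 37824583, minus strand) was at 1.597, 2.16 and 4.42 CPM in dorsal libraries and 3.55, 5.79 and 6.01 CPM in the ventral ones. Dorsal library 3 lay above ventral library 1, so the regions overlapped, and the ventral mean was the larger of the pair. The log2 fold change of -0.91 (SE 0.55) did not pass (edgeR adjusted p = 0.309). Msx2 (ENSMUSG00000021469, chromosome 13, 53466884 to 53473074, minus strand) was near the limit of counting at 0.235, 0.480 and 0.340 CPM in dorsal. In ventral it was at 0.395, 0.757 and 0 CPM, with 0 to 14 counts per library over both regions. Neither of these BMP-induced factors separated the regions, and another mouse Msx gene, Msx3, was at 2.58 ± 0.891 against 3.03 ± 1.23 CPM without passing.

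Bmp7 (ENSMUSG00000008999, chromosome 2, 172868012 to 172940321, minus strand), the more abundant of the 2 ligands per length, was at 8.27, 11.8 and 9.35 CPM in dorsal. It was at 2.76, 6.92 and 3.95 CPM in ventral. The lowest dorsal library lay just above the highest ventral one. The means were 9.79 ± 1.79 and 4.54 ± 2.14 CPM (SD, n = 3 each). Its log2 fold change of 1.11 (SE 0.44, edgeR adjusted p = 0.133) did not pass under this or any of the 13 alternatives (adjusted p 0.0845 to 0.360). Gdf7 (ENSMUSG00000037660, chromosome 12, 8297918 to 8301954, minus strand), a ligand used as a defining roof plate marker in the spinal cord, had 6, 1 and 6 counts in dorsal and 4, 3 and 13 counts in ventral. Those counts correspond to means of 0.223 ± 0.155 and 0.361 ± 0.314 CPM. The regions overlapped, and at this depth no difference in Gdf7 was detectable.

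Ttr (ENSMUSG00000061808, chromosome 18, 20665280 to 20674321, plus strand), which encodes a carrier of thyroid hormone and retinol, was at 6.95, 2.497 and 15.8 CPM in dorsal libraries. In ventral libraries it was at 1.92, 1.73 and 0.389 CPM. The dorsal libraries differed among themselves, relative to their mean, more than for any other gene of the 9, and dorsal library 2 lay close to the ventral ones. The log2 fold change of 2.63 (SE 0.83) did not pass (edgeR adjusted p = 0.0696), whereas it passed in DESeq2 (adjusted p = 0.0103) and in edgeR without the minimum (adjusted p = 0.0289). Liver, yolk sac and pancreatic islet cells also make Ttr. Of 11 liver and yolk sac markers 4 were tested. All 4, Apob, Apoa1, Rbp4 and Cyp3a11, were higher in ventral, as were 9.54% of all tested genes. The list summed to 259 to 919 CPM in ventral against 1.59 to 5.16 CPM in dorsal. Alb, Afp, Fgb, Fgg, Ahsg and Serpina1a stayed under the minimum. Small intestine genes summed to 2707 to 9700 CPM in the same ventral libraries. Islet markers summed to 309 to 380 CPM in ventral and 138 to 187 CPM in dorsal, and 2 of 5 tested passed, with ventral the higher. The part of these cells in the Ttr values was not tested.

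Other genes of choroid plexus and its ciliated cells did not share 1 direction in bulk. Of 18 listed, 10 were tested, 2 were higher in dorsal and 2 in ventral, with a median log2 fold change of 0.98. Beside these few calls, the shares over all tested genes were 7.14% and 9.54%. Otx2, a homeobox factor required for choroid plexus, was at 34.3 ± 1.85 against 8.42 ± 2.29 CPM. Mcidas, a regulator of multiciliated cells, was at 1.89 ± 1.33 against 0.118 ± 0.124 CPM, a call lost without dorsal library 2, ventral library 1 or ventral library 2 (adjusted p up to 0.147) and, narrowly, with RLE scaling or limma-trend (0.0505 and 0.0513). Higher in ventral were Calml4, at 30.0 ± 19.8 against 0.591 ± 0.109 CPM, and the sulfatase gene Sulf1, at 63.7 ± 7.02 against 5.01 ± 1.20 CPM. Ventral libraries also held small intestine genes (2707 to 9700 CPM), and the part of such tissue in the Calml4 values was not tested. Folr1, a folate receptor of choroid plexus, was under the minimum at 0.645 ± 0.139 and 0.201 ± 0.214 CPM.

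Pax3 (ENSMUSG00000004872, chromosome 1, 78101267 to 78197134, minus strand) was the most even of the 9 between replicates, at 5.45, 4.56 and 4.93 CPM in dorsal. It was at 0.444, 0.649 and 0.723 CPM in ventral libraries. The 2 regions lay far apart relative to the spread within each. Its log2 fold change of 3.03 (SE 0.53, edgeR adjusted p = 0.00698) lost its call only without dorsal library 1 (2.95, adjusted p = 0.0505), with a range of 1.44e-06 to 0.0505 over the alternatives. Pax7 (ENSMUSG00000028736, chromosome 4, 139737062 to 139833528, minus strand) had 21, 21 and 41 counts in dorsal and 0, 2 and 0 in ventral libraries. The ratio of the summed counts, 83 against 2, was 39.4 with a 95% counting interval of 10.6 to 331, which covers counting error only. Pax7 lay under the minimum. In the fit without it, it passed at a log2 fold change of 5.10 (SE 1.33, edgeR adjusted p = 0.0173), a call made for 0.302% of the genes under the minimum in the dorsal direction.

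Genes of the dorsal neural tube and pretectum listed beside the Pax pair were mostly higher in dorsal, 11 of 13 tested, against 1 higher in ventral. The shares over all tested genes were 7.14% and 9.54%. The median log2 fold change of the list was 3.98. Gbx2, a thalamic homeobox gene, was at 116 ± 6.24 against 3.09 ± 0.502 CPM, and Irx1 at 4.88 ± 2.46 against 0.0705 ± 0.0832 CPM. Gsx1, the exception, was at 3.07 ± 0.766 against 56.2 ± 14.6 CPM. Neural crest, another source of Pax3 and Pax7 in an embryo, was checked with 6 markers, and no further source was checked. Its defining genes Sox10, at 0.255 ± 0.364 and 0.0891 ± 0.0634 CPM, and Foxd3, at 0.110 ± 0.152 and 0.0180 ± 0.0312 CPM in dorsal and ventral, were near 0. The list summed to 22.1 to 33.8 CPM in dorsal and 3.45 to 7.08 CPM in ventral. Of 4 tested, 1 passed, Tfap2b, higher in dorsal at 22.8 ± 5.19 against 0.401 ± 0.318 CPM. The markers thus did not share 1 level, and the part of neural crest in the Pax3 and Pax7 values was not tested.

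Per kilobase of exon, the dorsal levels ran from Ttr at 7.08 ± 5.68 CPM per kilobase through Bmp7 at 2.44 ± 0.446, Lmx1a at 1.67 ± 0.511, Msx1 at 0.880 ± 0.482 and Pax3 at 0.805 ± 0.0720. Pax7 at 0.246 ± 0.131, Lmx1b at 0.237 ± 0.123, Gdf7 at 0.157 ± 0.109 and Msx2 at 0.107 ± 0.0376 CPM per kilobase followed. Of the neighbours in this order only Pax3 and Pax7 were separated by more than the sum of their SDs. In ventral the order was led by Msx1 at 1.65 ± 0.439 CPM per kilobase, followed by Ttr at 1.14 ± 0.704 and Bmp7 at 1.13 ± 0.533. After a gap larger than the summed SDs, Gdf7, Lmx1a, Msx2, Pax3, Lmx1b and Pax7 lay between 0.254 and 0.00615 CPM per kilobase. Lmx1a thus ranked 3 of 9 in dorsal and 5 of 9 in ventral, and Msx1 ranked 4 and 1.

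A further 21 genes of the roof plate, cortical hem and dorsal midline put the 9 in context. Of 12 tested, 9 were higher in dorsal and none in ventral, beside 7.14% and 9.54% of all tested genes, with a median log2 fold change of 3.48. The 9 fell to 5 without dorsal library 1, to 6 without dorsal library 2 and to 4 without ventral library 1. Zic2, a zinc-finger factor of the dorsal midline, was at 4.12 ± 0.625 against 0.103 ± 0.0989 CPM, and Rspo3, a Wnt agonist of the hem, at 61.0 ± 1.76 against 2.96 ± 1.17 CPM. Those that did not pass were Gdf10 at 1.91 ± 0.542 against 0.682 ± 0.511 CPM, Wnt8b at 2.85 ± 0.519 against 2.58 ± 2.28 CPM, and Msx3. The roof plate ligands Wnt1 and Wnt3a stayed under the minimum, at 0.0854 ± 0.0344 and 1.07 ± 0.745 CPM in dorsal with no counts in ventral. Telencephalic markers were higher in the same libraries, among them Emx1 at 26.8 ± 8.04 against 0.0180 ± 0.0312 CPM and Tbr1 at 423 ± 72.0 against 3.004 ± 1.58 CPM. The part of telencephalic tissue in the dorsal values of Lmx1a, Pax3 and the hem genes was not tested.

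**Figure D2:**
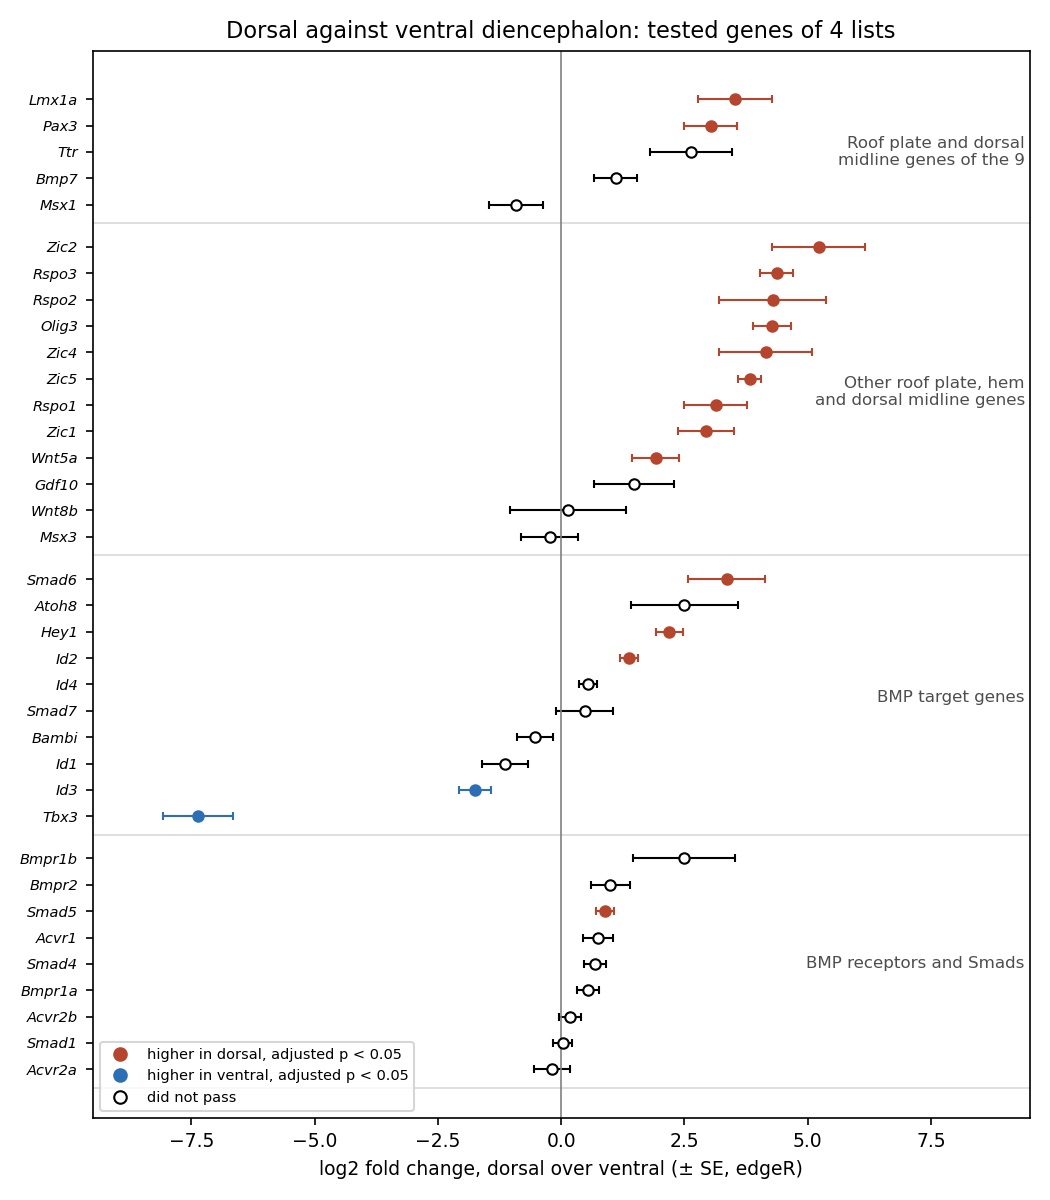
Log2 fold change of dorsal over ventral diencephalon with its standard error (edgeR) for the tested genes of 4 lists; filled points passed an adjusted p of 0.05 and open points did not. Lmx1a and Pax3 are filled at 3.53 and 3.03, Msx1 lies left of 0, and 9 of the 12 other roof plate and hem genes are filled on the dorsal side.

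The BMP pathway around Gdf7, Bmp7 and the Msx factors was followed by lists. Over all tested genes, 7.14% were called higher in dorsal and 9.54% higher in ventral, and these small lists are read beside those shares. None of 4 tested ligands of other genes passed, with Gdf11 at 11.3 ± 2.69 against 8.41 ± 1.58 CPM and Bmp3 at 10.3 ± 2.18 against 5.51 ± 2.37 CPM. Of 9 tested receptors and Smad proteins, 1 was higher in dorsal, Smad5, a signal transducer, at 105.0 ± 12.4 against 56.8 ± 8.45 CPM. That call was lost without dorsal library 1 or 2 or ventral library 1 or 2 (adjusted p up to 0.0783). None of 10 antagonists passed, with Twsg1 at 96.5 ± 36.4 against 75.5 ± 17.2 CPM and Fstl1 at 36.5 ± 6.27 against 28.8 ± 4.91 CPM.

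Targets of BMP signalling were split, with 3 of 10 tested higher in dorsal and 2 in ventral. Hey1, a repressor shared with Notch signalling, was at 38.8 ± 9.99 against 8.47 ± 1.26 CPM. Smad6, an inhibitory Smad, was at 3.81 ± 1.72 against 0.365 ± 0.225 CPM, a call lost without dorsal library 1 or 2 or ventral library 1 or 2 (adjusted p up to 0.0777). Tbx3, a hypothalamic T-box factor, was at 0.123 ± 0.0928 against 20.7 ± 9.94 CPM, and Id3 at 12.1 ± 5.25 against 40.7 ± 4.04 CPM. Id3 and Msx1 both had their larger mean in ventral, whereas Id2, chosen after its values were seen as the remaining dorsal call, was at 234 ± 33.9 against 90.5 ± 13.04 CPM.

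For each tested gene of the 9, the genes with the nearest profile over the 6 libraries were found by the root mean square distance of centred log2(CPM + 1) values among 13495 genes. Lmx1a was nearest to Pdgfc (0.0679), which encodes a growth factor, and Kif20a (0.117), which encodes a mitotic kinesin. Pax3 was nearest to the cell-cycle factor E2f1 (0.0576) and the ephrin gene Efna3 (0.0769). Msx1 was nearest to Irgm1 (0.0985) and Apoe (0.109), and Bmp7 to Pcx (0.167) and Kank1 (0.180). Ttr had no near neighbour: Zfp217 at 0.392 and Ank1 at 0.404 were the closest. The likeness is over 6 libraries in 2 regions and is given as a description.

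In the Smart-seq2 libraries the comparison of labelled genotypes asks whether loss of Axin2, a negative-feedback inhibitor of Wnt signalling, went with other levels of these genes. The labels call each library a cell and name no embryo, so each genotype was 1 sample, and no test and no p-value is given. Axin2 itself was at 0 to 22.4 TPM (transcripts per 1000000), median 3.28, in the libraries labelled null, and at 4.32 to 35.9 TPM, median 13.2, in those labelled wild type. It reached 1 TPM in 11 of 13 and 12 of 12. A gene-level value does not show which exons the reads came from, so it checks the labels only in part. Null and wild type are used here as the labels give them.

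The identity of the libraries was checked with marker lists. Emx1, a cortical homeobox gene, was at 7.0 to 149 TPM in all 25 libraries. The same 25 libraries also held Hbb-y, an embryonic globin of red blood cells, at 226 to 15421 TPM, and Col3a1, a mesenchymal collagen, at 5.94 to 114 TPM. Dcn and Lum, also mesenchymal, reached 1 TPM in 24 and 23. Each library therefore carried transcripts of several cell types beside Ttr and Msx1, and whether a library was 1 cell, several cells or a cell with free RNA was not tested. If a library held several cells, the shares and SDs given here describe pools.

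Detection differed widely among the 9 genes. Ttr and Msx1 reached 1 TPM in all 25 libraries, Bmp7 in 23, Msx2 in 16 and Lmx1a in 14, while Lmx1b and Pax3 did so in 2 each, Pax7 in 1 and Gdf7 in none. Between 3 and 5 of the 9 were detected per library labelled null (median 4) and between 3 and 6 per library labelled wild type (median 5). Msx2, Bmp7 and Msx1 differed between null and wild type by -1.28, -0.97 and -0.69 in mean log2(TPM + 1), Lmx1a by -0.11 and Ttr by 0.33.

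These differences have to be read against all genes. For 13680 genes whose mean reached 1 TPM, the median difference was -0.224, with 8.14% lower in null by more than 1 and 1.39% higher by more than 1. Among the 9, 5 had such a mean, and 1 of them, Msx2, was lower by more than 1, with none higher. Libraries labelled null held 7863 to 11852 genes at 1 TPM or more (median 10791) and those labelled wild type 8693 to 12209 (median 11271). Mitochondrially encoded genes took 0.384% to 5.71% of TPM (median 1.84%) and 2.11% to 8.80% (median 3.40%). The part of these library differences in the gene differences was not tested, and the depth of the libraries is unknown because TPM keeps none.

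Ttr was the most abundant of the 9 by TPM, with a lowest, median and highest value of 60.3, 533 and 973 TPM in null and of 21.6, 429 and 771 TPM in wild type. The means were 485 ± 263 TPM (SD over 13 libraries) and 434 ± 239 TPM (SD over 12). The genotypes overlapped over nearly the whole range. The low end was formed by null library 7 and wild-type libraries 1 and 3, each with fewer than 10000 genes detected. Other libraries under that number lay higher, null libraries 1, 9 and 10 at 477, 142 and 174 TPM and wild-type library 7 at 388 TPM. Without wild-type library 1 the difference was -0.02, and without null library 7 it was 0.55. In the table the first 7 null columns stand beside the first 7 wild-type columns, followed by 3 null and 5 wild-type columns and then 3 null columns. The labels do not say what these blocks are. The Ttr difference was 0.96 within the first block and -1.41 within the next, so its sign turned.

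Ttr was accompanied by other choroid plexus genes in the Smart-seq2 libraries, of which 17 of 18 listed reached 1 TPM in at least 1 library. Of the 15 whose mean reached 1 TPM, 1, Folr1, was lower in null by more than 1 on the log2(TPM + 1) scale. The share over all genes with such a mean was 8.14%. Folr1 had means of 25.3 ± 40.7 TPM in null (9 of 13 libraries) and 37.0 ± 44.7 TPM in wild type (11 of 12). Igf2, a growth factor of choroid plexus and mesenchyme, was at 73.8 ± 47.0 and 83.3 ± 42.2 TPM and was detected in all 25, and Sulf1 was at 23.2 ± 31.1 and 42.4 ± 66.8 TPM. The list without Ttr summed to 95.1 to 519 TPM in null (median 193) and 54.1 to 549 TPM in wild type (median 281), so Ttr and this sum differed in opposite directions between the genotypes by their medians. Of the other cells that make Ttr, liver and yolk sac markers had a median sum of 0 in both genotypes (up to 36.0 TPM in null and 6.18 TPM in wild type), with 5 of 11 detected, among them Rbp4 in 3 libraries, Apoa1 in 2 and Afp in 1. Pancreatic islet markers summed to 0 to 41.1 TPM in null (median 6.87) and 0.970 to 72.5 TPM in wild type (median 26.5). Of these 10 genes 4 were detected, Chga in 20 libraries, Chgb in 9, Sst in 4 and Ins2 in 1, while Ins1, Gcg, Ppy and Iapp were listed at 0 in all 25. Chga and Chgb, which encode granins, are also expressed by neurons. The part of these cells in the Ttr values was not tested.

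Msx1 was at 5.41, 28.1 and 81.5 TPM (lowest, median, highest) in null and at 26.7, 37.0 and 103 TPM in wild type. In all, 5 null libraries lay below the lowest wild-type library, and the upper ranges overlapped. The difference of -0.69 was -0.35 in the first block of columns and -2.44 in the next, where the 3 null libraries were at 5.41 to 11.49 TPM and the 5 wild-type ones at 32.0 to 91.2 TPM. In libraries with at least 10000 genes detected, 9 of each genotype, it was -0.25. The sign was the same in each of these settings, while the size moved by more than the spread between libraries in 1 of them.

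Msx2 was at 0, 2.26 and 15.97 TPM in null and at 0, 6.59 and 32.5 TPM in wild type. It was detected in 7 of 13 null libraries and in 9 of 12 wild-type libraries. Its difference was -1.28 in the first block of columns, -2.50 in the next and -1.30 in the libraries with at least 10000 genes. Leaving out any 1 library gave -1.53 to -1.07. The 2 highest null libraries, 13 and 11, belong to the last 3 null columns, which have no wild-type columns beside them.

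Bmp7 was at 0, 7.28 and 38.5 TPM in null and at 1.29, 19.5 and 41.3 TPM in wild type. It was detected in 11 of 13 and 12 of 12 libraries. The 2 undetected libraries were null libraries 1 and 10, both with fewer than 10000 genes detected. Null libraries 7 and 9, also under that number, were at 12.8 and 31.3 TPM. Wild-type libraries 1, 3 and 7, under it too, were at 28.1, 41.3 and 23.6 TPM. The difference of -0.97 became -0.27 in the libraries with at least 10000 genes. It was -1.22 in the first block of columns and -1.69 in the next. Gdf7 was listed at 0 in all 25 libraries. Thus Bmp7 was the BMP-family ligand of the 9 that was detected in the medial cortex libraries.

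Lmx1a was at 0, 1.80 and 18.7 TPM in null and at 0, 2.03 and 16.5 TPM in wild type, and 7 libraries of each genotype reached 1 TPM. The highest values came from null library 8 and wild-type library 9. Leaving out either of these moved the difference of -0.11 to -0.33 or 0.11, so its sign rested on 1 library. Lmx1b was listed at 0 in 21 of 25 libraries and reached at most 1.37 TPM in null and 1.54 TPM in wild type. Of the Lmx1 pair, Lmx1a was thus detected in 14 libraries and Lmx1b in 2.

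Pax3 was listed at 0 in all 13 null libraries and reached 1 TPM in 2 of 12 wild-type libraries, 1 and 11, at 4.80 and 4.21 TPM. With 1 sample per genotype this difference has no replicate check. Pax7 reached 0.790 TPM at most in null and 1.63 TPM in 1 wild-type library. These 2 factors, which separated the diencephalic regions, were at the limit of detection in the medial cortex. Of the 6 neural crest markers, Sox10, Foxd3 and Erbb3 were below 1 TPM in all 25 libraries, while Ets1 reached it in 19 (up to 23.6 TPM), Tfap2b in 10 (up to 7.92 TPM) and Tfap2a in 1. The list summed to 0 to 13.03 TPM in null (median 3.65) and 0 to 23.6 TPM in wild type (median 12.04), and its part in the Pax3 and Pax7 values was not tested.

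**Figure D3:**
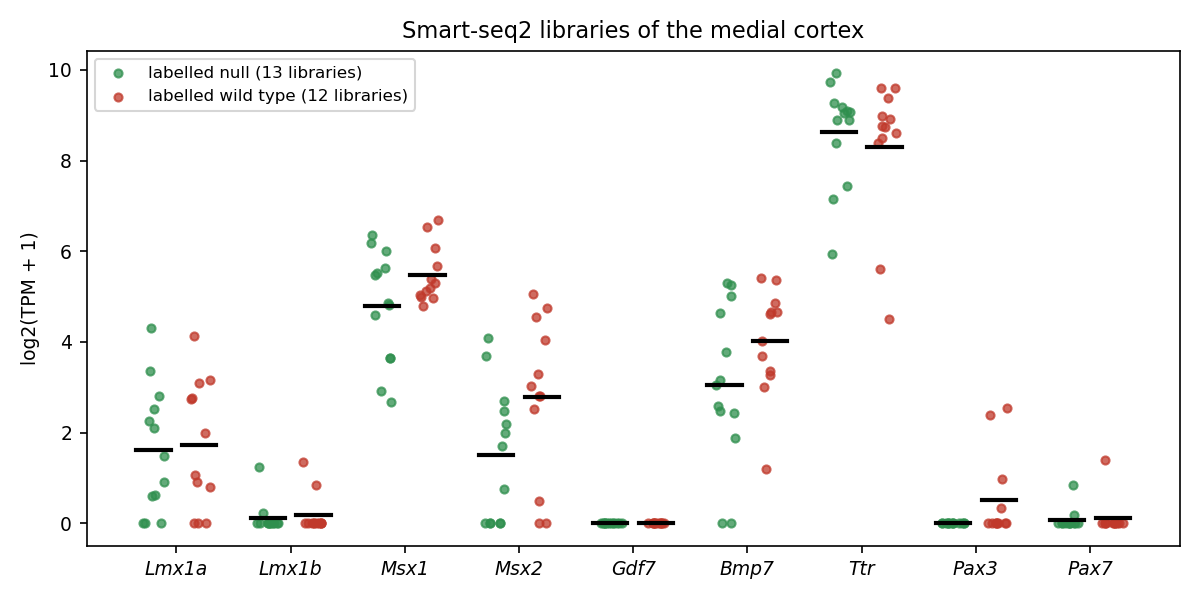
Log2(TPM + 1) of each gene in each Smart-seq2 library, with libraries labelled null in green (13) and labelled wild type in red (12); black bars are means, and points are spread sideways for sight only. Ttr and Msx1 lie above 0 in all 25 libraries, Gdf7 is at 0 in all, and the genotypes overlap for every gene that is detected in both.

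By mean log2(TPM + 1) the order was Ttr, Msx1 and Bmp7 in both genotypes, at 8.62 ± 1.13, 4.79 ± 1.23 and 3.04 ± 1.77 in null and 8.30 ± 1.58, 5.48 ± 0.631 and 4.01 ± 1.20 in wild type (SD over libraries). Lmx1a came before Msx2 in null, at 1.61 ± 1.40 and 1.503 ± 1.48, and after it in wild type, at 1.72 ± 1.44 and 2.78 ± 1.78. Ttr and Msx1 were the only neighbours whose gap was larger than the sum of their SDs in either genotype, leaving out genes at 0 throughout. Compared with the dorsal diencephalon order per kilobase, Msx1 stood above Lmx1a and Bmp7 in the cortex libraries and below both in the dorsal bulk libraries. The tables were normalized separately, so only orders within a table are set side by side.

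Across the 25 libraries Lmx1a and Msx2 had a Spearman correlation of 0.528 (0.341 within null and 0.663 within wild type). Both were at 1 TPM or more in 12 libraries, and 7 had neither. Msx1 and Msx2 correlated at 0.523, but at 0.192 within null against 0.774 within wild type. Ttr correlated at 0.488 with Msx1, 0.471 with Lmx1a and 0.405 with Msx2, and at -0.179 with Bmp7. Bmp7 correlated at -0.228 with Lmx1a, 0.0569 with Msx1 and -0.00194 with Msx2. Within wild type all 4 of its correlations were negative, at -0.444 with Lmx1a, -0.483 with Msx1, -0.336 with Msx2 and -0.524 with Ttr. Within null they were -0.160, 0.201, -0.0255 and 0.124. Whether these differ between the genotypes was not tested. The number of genes detected, a property of the whole library, correlated at 0.578 with Ttr, 0.361 with Lmx1a, 0.350 with Msx2, 0.150 with Msx1 and -0.005 with Bmp7, and its part in these correlations was not tested.

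**Figure D4:**
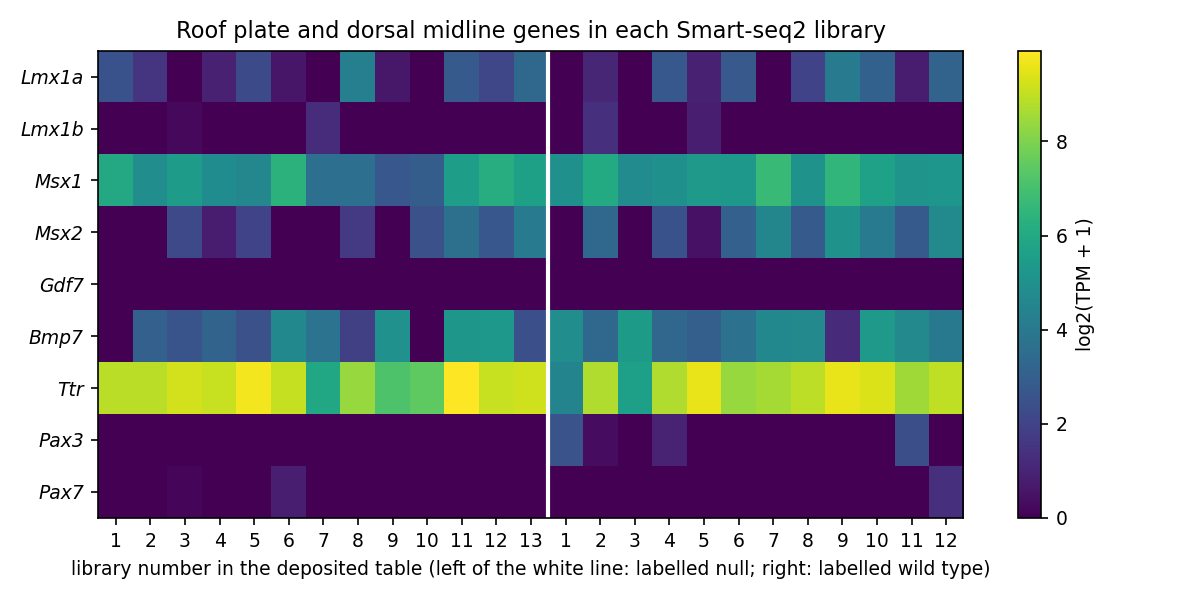
Log2(TPM + 1) of the 9 genes (rows) in the 25 Smart-seq2 libraries (columns), numbered as in the deposited table, with libraries labelled null left of the white line and labelled wild type right of it. The Ttr row is darkest in null library 7 and wild-type libraries 1 and 3, and Pax3 shows only on the wild-type side.

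By Spearman correlation over the 25 libraries and 11597 candidate genes, the nearest profiles were Arl6ip5 (0.863) and Emd (0.799) for Lmx1a, and Cirbp (0.838) and Pkdcc (0.797) for Ttr. For Bmp7 they were Phf13 (0.802) and Rasal2 (0.750), and for Msx2 Tceal6 (0.784) and Gpr108 (0.762). Msx1 was nearest to the collagen receptor gene Ddr1 (0.779) and the Polycomb gene Ring1 (0.754). No gene of the 9 was among the 2 nearest of another.

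Among the 21 other roof plate, hem and dorsal midline genes, the mean reached 1 TPM for 15, 1 of them was lower in null by more than 1 and none was higher, with a median difference of -0.46. Over all genes with such a mean, 8.14% were lower by more than 1 and 1.39% higher. The 1 lower gene of this list was Zic4, at 21.8 ± 19.5 TPM in null and 37.2 ± 23.0 TPM in wild type. The hem genes Rspo3 (41.8 ± 25.4 and 50.5 ± 37.0 TPM) and Wnt8b (24.7 ± 18.8 and 34.3 ± 19.1 TPM) were detected in all 25 libraries. Wnt3a, which marks the hem, was detected in 5 of 13 and 7 of 12. Wnt2b, of the same list, reached 1 TPM in 2 libraries and Wnt1 in none. Of the choroid plexus list, Aqp1 did so in 2 libraries, Kl in 1 and Prlr in none. The medial cortex libraries thus held transcripts of some, but not all, of the listed hem and choroid plexus genes.

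Each BMP pathway list had a median difference below 0 between the labelled genotypes, as did all genes at -0.224. Of all genes whose mean reached 1 TPM, 8.14% were lower in null by more than 1. The 6 other ligands whose mean reached 1 TPM had a median difference of -0.31, with Bmp4 at 2.73 ± 3.46 and 6.08 ± 6.15 TPM and Gdf5 at 4.07 ± 5.17 and 4.05 ± 5.23 TPM. The 9 receptors and Smad proteins had -0.56 and the 8 antagonists -0.49, each with 1 gene lower in null by more than 1, Acvr2a at 7.08 ± 6.79 and 10.9 ± 6.15 TPM and Dand5 at 1.52 ± 2.85 and 6.003 ± 4.53 TPM. The 8 BMP targets had -0.26 with none beyond 1 in either direction. Id3 was at 230 ± 90.9 and 205 ± 86.5 TPM, and Id2 at 92.9 ± 62.0 and 88.2 ± 38.9 TPM. Their differences were 0.18 and -0.25, beside -1.28 for Msx2.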

How the data were processed

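Gene expression was analysed in 6 bulk and 25 Smart-seq2 libraries. The submitters' processing notes name featureCounts, Trimmomatic and STAR 2.7.0a and builds GRCm38 and mm10; their roles and other steps are not given in the sources used here. The bulk table carries TPM in its name. Since column sums ran from 17604411 to 20838225 and 46.6% of nonzero entries were whole (tolerance 0.0001), the authors' deposited values were taken as estimated counts. They were rounded and tested with edgeR 4.0.16 in R 4.3.3 (TMM, quasi-likelihood F test, mean of at least 1 CPM, Benjamini-Hochberg over all tested genes, threshold 0.05). The deposited Smart-seq2 table holds the authors' TPM, with columns summing to 999999.57 to 1000000.7. Its columns name a genotype and a number but no numbered sample, so library numbers are the table's. Means of log2(TPM + 1) were compared without a test, and detection meant 1 TPM.

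Identifiers were matched to symbols and coordinates of GENCODE M21 on GRCm38 (34581 bulk and 55141 Smart-seq2 identifiers had a symbol). The genes and lists were chosen with earlier results of these data known. A few listed genes are not reported here and were left out of their lists' counts, sums and figures. Named beside the 9 genes are, per list, up to 2 genes per direction with the largest fold change among those past the threshold. Where none passed, and in Smart-seq2, these were the 2 highest, and the 2 nearest profiles per gene were added. Wnt1, Wnt2b, Wnt3a, Gdf10, Msx3, Folr1, Aqp1, Kl, Prlr, Id2, Sox10, Foxd3 and Bmp4 were named after their values were seen. So were Barhl2, Slc17a6, Rbp4, Cyp3a11, Acvr2a, Dand5, Zic4, Col3a1 and further neural crest, liver and islet markers. Alternatives were other scalings, DESeq2 1.42.0, limma 3.58.1 (trend), the count minimum, a replicate block, single libraries left out and, in Smart-seq2, the pseudocount, medians and subsets of libraries. The edgeR script was tested on simulated data.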

Additional observations from a re-analysis of the deposited data

How the results depend on the processing

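The count of the 9 genes higher in dorsal, 2 in the fit reported, was 4 with no filter on low counts, where Ttr and Pax7 joined, 0 with a minimum of 5 CPM, where Lmx1a and Pax3 were not tested, and 0 to 2 when 1 library was left out (0 without dorsal library 1, 1 without dorsal library 2 or ventral library 1). None was higher in ventral under any of these. Over all genes, leaving out 1 library gave 500 to 1695 higher in dorsal and 839 to 1928 higher in ventral, against 1050 and 1403, with 500, 561, 530 and 599 higher in dorsal without dorsal libraries 1 and 2 and ventral libraries 1 and 2, and 1695 without ventral library 3. DESeq2 called 1542 and 2009. Whether the replicate numbers pair the libraries was not settled. Same-numbered dorsal and ventral libraries correlated at 0.0992, 0.148 and 0.165 in their deviations from the region means. Differently numbered ones ranged from -0.192 to 0.187. Dorsal libraries 1 and 3 correlated best with the ventral library of their number, and dorsal library 2 with ventral library 1. With the replicate block, 924 and 1083 genes were called and the same 2 of the 9 genes passed (Lmx1a 3.74, edgeR adjusted p = 0.0277; Pax3 3.05, adjusted p = 0.0313), while Barhl1, Mcidas and Smad6 lost their calls (0.0525, 0.122 and 0.0773). In Smart-seq2 the count of the 9 genes lower in null by more than 1, which was 1, became 3 with a pseudocount of 0.1, 2 with medians, 2 in the first block of columns, 4 in the next block and 1 to 2 without single libraries; the subsets by column and by 10000 genes were chosen after seeing the data, and a minimum of 5000 genes left out no library. No bulk fold change of a named and tested gene reversed its sign. That rule was not applied to other values. Signs turned in some settings for Ttr, Lmx1a, Lmx1b and Pax7 in Smart-seq2, and for the untested Msx2 and Gdf7 in bulk. With 2 to 150 counts per library behind Lmx1a, and fewer for Gdf7, Msx2 and Pax7, counting limits the bulk values, and TPM gives no depth for the others.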
